A study of Homo sapiens with 8 samples.

Results

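The nuclear genes that carry out transcription of the mitochondrial genome and look after its transcripts were examined in multiple myeloma (MM) cell lines exposed to THZ1, a covalent inhibitor of the cyclin-dependent kinase CDK7, which phosphorylates RNA polymerase II. The set held 10 genes, POLRMT, TFAM, TFB1M, TFB2M, TEFM, LRPPRC, SLIRP, PNPT1, ELAC2 and SUPV3L1, out of 63677 genes counted, and was listed by gene function, with earlier results of these data known. RNA sequencing had been run on JJN3 cells with DMSO (the vehicle), JJN3 cells with THZ1, cells labelled H929 with DMSO and cells labelled H929 with THZ1, with 2 libraries in each of the 4 groups and 8 in all. THZ1 was given at 50 nM for 24 h, and both lines, established human MM lines, were grown in the same serum-containing medium, without marrow stromal cells and with no other agent named in the labels. Nothing in the labels says whether the 2 libraries of a group came from separate cultures, so the p-values measure the spread between these libraries, which may be technical.

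The libraries held 17476443 to 19194371 counts. In JJN3, DMSO and THZ1 libraries stayed close to each other (Pearson r of log2 CPM across genes between 0.966 and 0.972), whereas those under the H929 DMSO and H929 THZ1 labels were as far apart (0.777 to 0.812) as either was from JJN3 (0.772 to 0.814). CPM gives a gene's count relative to the total of its library, scaled up to a common round total, with library sizes adjusted by the TMM method except for the marker genes of this paragraph, which are given per total counts. FGFR3, a receptor gene that the H929 line is known to express through a chromosomal translocation, was at 2.40 and 15.8 CPM under the H929 DMSO label and at 766 and 733 CPM under the H929 THZ1 label. MAF was at 960 and 904 CPM against 148 and 161 CPM in the same libraries. CCND1 was at 94.1 and 100 CPM against 83.5 and 85.6 CPM in them, and at most 0.108 CPM in any JJN3 library. Calls here, as below, need an edgeR adjusted p under 0.05 and a log2 fold change beyond 0.5. Under the H929 labels they took in 33.1% of all genes tested as higher and 32.6% as lower. Of 7 genes listed as myeloma translocation partners, 4 were called higher and 2 lower under the H929 labels, and 1, CCND1, was not called. Whether the DMSO and THZ1 pairs labelled H929 are the same cell line was not settled by these data, and a difference in line cannot be told apart from THZ1 in them. The JJN3 comparison is therefore given on its own throughout, and a value under the H929 labels, interaction terms included, is a difference between these pairs of libraries and not a response of a known line to THZ1. Of 10 plasma cell markers, 8 or 9 exceeded 1 CPM in both libraries of every group, and CD27 was at or near 0 in all 8 libraries. The summed level of the plasma cell markers was 2765 to 2775 CPM in JJN3 DMSO, 1901 to 1964 CPM in JJN3 THZ1, 2014 to 2160 CPM under the H929 DMSO label and 7783 to 7895 CPM under the H929 THZ1 label. Under the H929 labels 7 of the 9 plasma cell markers tested were called higher, among them SLAMF7 at 0.107 and 9.65 CPM against 485 and 502 CPM. There CD38 (-0.58) and MZB1 (-1.07) were called lower. In JJN3 5 of the 9 tested were called lower and 0 higher, where 21.3% of all genes were called lower and 20.6% higher. Markers of B cells summed to at most 30.8 CPM in any library, with CD22 at 0 in all. Most of each sum was CD79B, at 15.6 and 16.3 CPM in JJN3 DMSO and 6.87 and 5.68 CPM in JJN3 THZ1. It was at 9.65 and 11.5 CPM under the H929 DMSO label and 28.3 and 29.4 CPM under the H929 THZ1 label. CD79B and MS4A1 were called lower in JJN3 (both -1.24), and CD79B was called higher under the H929 labels (1.40). T cell and myeloid markers summed to at most 40.8 CPM, with FCGR3A at 0 in all libraries and CD3D below 1 CPM. Between the H929 DMSO and THZ1 labels CD3E went from 0.800 and 1.44 to 34.7 and 35.5 CPM, ITGAM from 32.4 and 25.7 CPM to 0 and CD8A from 6.45 and 5.99 CPM to 0. The part of these differences in the results below was not tested.

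Mitochondrial DNA (mtDNA) is a small circular genome transcribed from both of its strands into long RNAs that are cut into rRNAs, tRNAs and mRNAs. POLRMT is the RNA polymerase for this work, TFAM bends and packs the DNA at the promoters, TFB2M opens the promoter, and TEFM keeps the polymerase moving once it has started. TFB1M, a relative of TFB2M, methylates the small mitochondrial rRNA. The tRNAs that lie between the genes mark the cutting points, and ELAC2 makes the cut at their 3′ ends. LRPPRC and SLIRP form a complex that holds mitochondrial mRNAs in a stable form, and PNPT1 with the helicase SUPV3L1 degrades RNA that is not needed. All 10 proteins are made from nuclear genes read by RNA polymerase II, and the mtDNA transcripts are not.

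Promoters of nuclear genes for mitochondrial proteins often carry binding letters for NRF1 or for GABPA, a factor of the ETS family. RefSeq promoter sequence (GRCh38.p14), from 250 bases before to 50 bases after the transcription start, was found for all 10 members. A member was counted when any of its listed starts matched. The share of all promoters is per start, for genes expressed here or not. The NRF1 letters GCATGCGC, read on both strands, were present in 3 of 10 members (POLRMT, TFB1M and TFB2M) and in 3.05% of 35116 promoters of the same length. The ETS letters CCGGAAG, read on both strands, were present in 5 of 10 (POLRMT, TFB1M, TEFM, SLIRP and ELAC2) and in 10.3% of all promoters. The letters for YY1 were in SLIRP alone among the members and in 0.849% of all promoters, and the CCAAT box, CCAAT, was in 7 of 10 members and 34.6% of all promoters. The sequences below are the 140 bases before the start, 5′ to 3′ along the gene. They are given for the members that carried the NRF1 letters, for SLIRP with its ETS letters, and for TFAM and LRPPRC. TFAM and LRPPRC, like PNPT1 and SUPV3L1, carried neither. In JJN3, TFAM, LRPPRC and SUPV3L1 were not called, nor was POLRMT, which carried both, while PNPT1 was called lower. Capitals mark NRF1 and ETS letters, and an unbroken capital run of 10 bases holds NRF1 letters on both strands, which overlap.
POLRMT (chr19:633538-633677, minus strand): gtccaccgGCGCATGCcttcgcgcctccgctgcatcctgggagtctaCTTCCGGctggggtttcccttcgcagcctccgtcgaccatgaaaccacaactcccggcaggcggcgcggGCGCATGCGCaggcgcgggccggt
TFB1M (chr6:155314485-155314624, minus strand): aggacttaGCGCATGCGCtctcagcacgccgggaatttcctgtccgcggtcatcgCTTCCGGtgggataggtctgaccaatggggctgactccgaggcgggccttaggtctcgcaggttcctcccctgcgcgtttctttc
TFB2M (chr1:246566262-246566401, minus strand): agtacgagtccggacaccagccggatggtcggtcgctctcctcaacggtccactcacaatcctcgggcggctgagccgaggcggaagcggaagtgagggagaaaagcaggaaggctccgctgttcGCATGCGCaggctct
SLIRP (chr14:77707963-77708102, plus strand): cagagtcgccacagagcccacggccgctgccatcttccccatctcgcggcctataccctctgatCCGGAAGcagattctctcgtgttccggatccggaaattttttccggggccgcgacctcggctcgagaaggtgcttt
TFAM (chr10:58385270-58385409, plus strand): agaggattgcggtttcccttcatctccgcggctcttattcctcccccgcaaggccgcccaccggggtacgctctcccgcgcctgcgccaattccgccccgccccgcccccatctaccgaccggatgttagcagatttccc
LRPPRC (chr2:43995990-43996129, minus strand): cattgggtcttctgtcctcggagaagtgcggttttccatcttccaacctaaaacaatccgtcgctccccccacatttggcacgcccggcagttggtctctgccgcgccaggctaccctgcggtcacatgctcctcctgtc
In POLRMT the NRF1 letters lay 132, 24 and 22 bases before the start, in TFB1M 132 and 130 bases before it and in TFB2M 15 bases before it. A match is a run of letters and not a measured binding site. Only exact letters were searched, so a variant site counts as absent, and a missing match does not show that a factor does not bind.

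**Figure D1:**
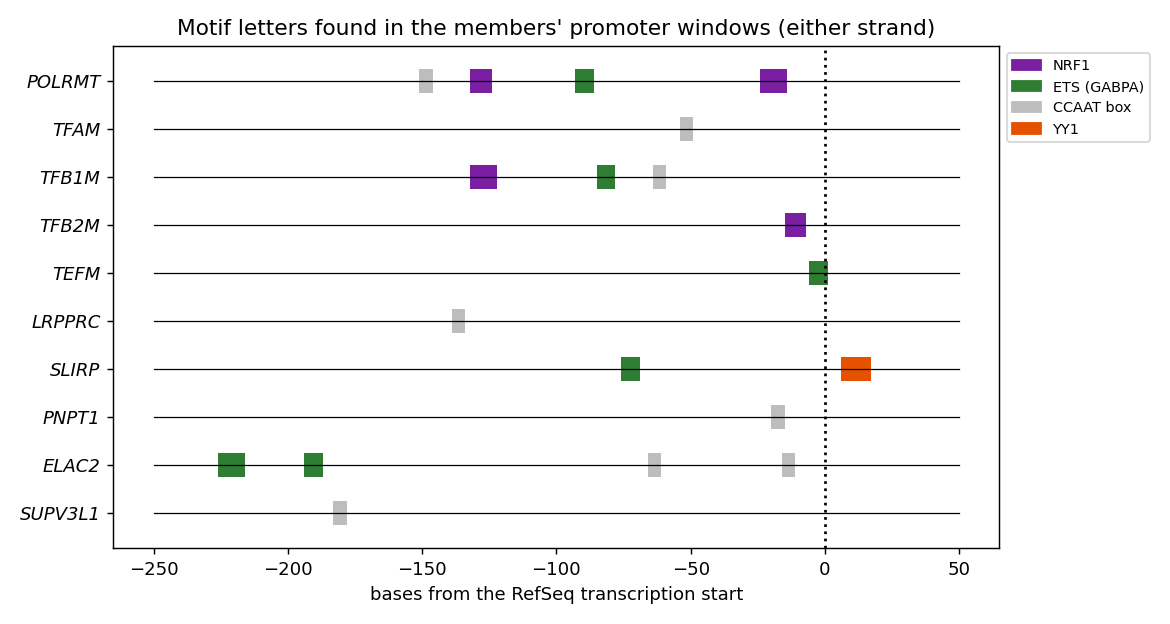
Positions of the NRF1, ETS, YY1 and CCAAT letters in the promoter window of each member, with bases from the RefSeq transcription start on the x axis and 1 line per gene. NRF1 letters appear in POLRMT, TFB1M and TFB2M, and of the exact letters searched TFAM, LRPPRC, PNPT1 and SUPV3L1 carry only a CCAAT box.

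To ask which members responded to THZ1 in JJN3, treated and DMSO libraries were compared across 13984 genes with edgeR's quasi-likelihood test, and a gene was called at an adjusted p under 0.05 and a log2 fold change beyond 0.5. TEFM, TFB1M, SLIRP, PNPT1, TFB2M and ELAC2 fell, 6 of 10 members, and none was called higher. Among all genes tested 21.3% were called lower and 20.6% higher. The median log2 fold change was -0.60 over the members and 0.00 over all genes (-0.00036 before rounding). In 8 of 10 members both THZ1 libraries lay below both DMSO libraries, against 40.5% of all genes, and in 1, TFAM, both lay above, against 39.4% of all genes, with library sizes scaled over the 4 JJN3 libraries. Levels are relative to the rest of the library, and in these bulk samples fewer cells of a type and less RNA per cell cannot be told apart. With library sizes scaled by total counts alone, the median of all genes in this comparison moved by -0.10 on the log2 scale and TFAM turned from 0.06 to -0.04.

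**Figure D2:**
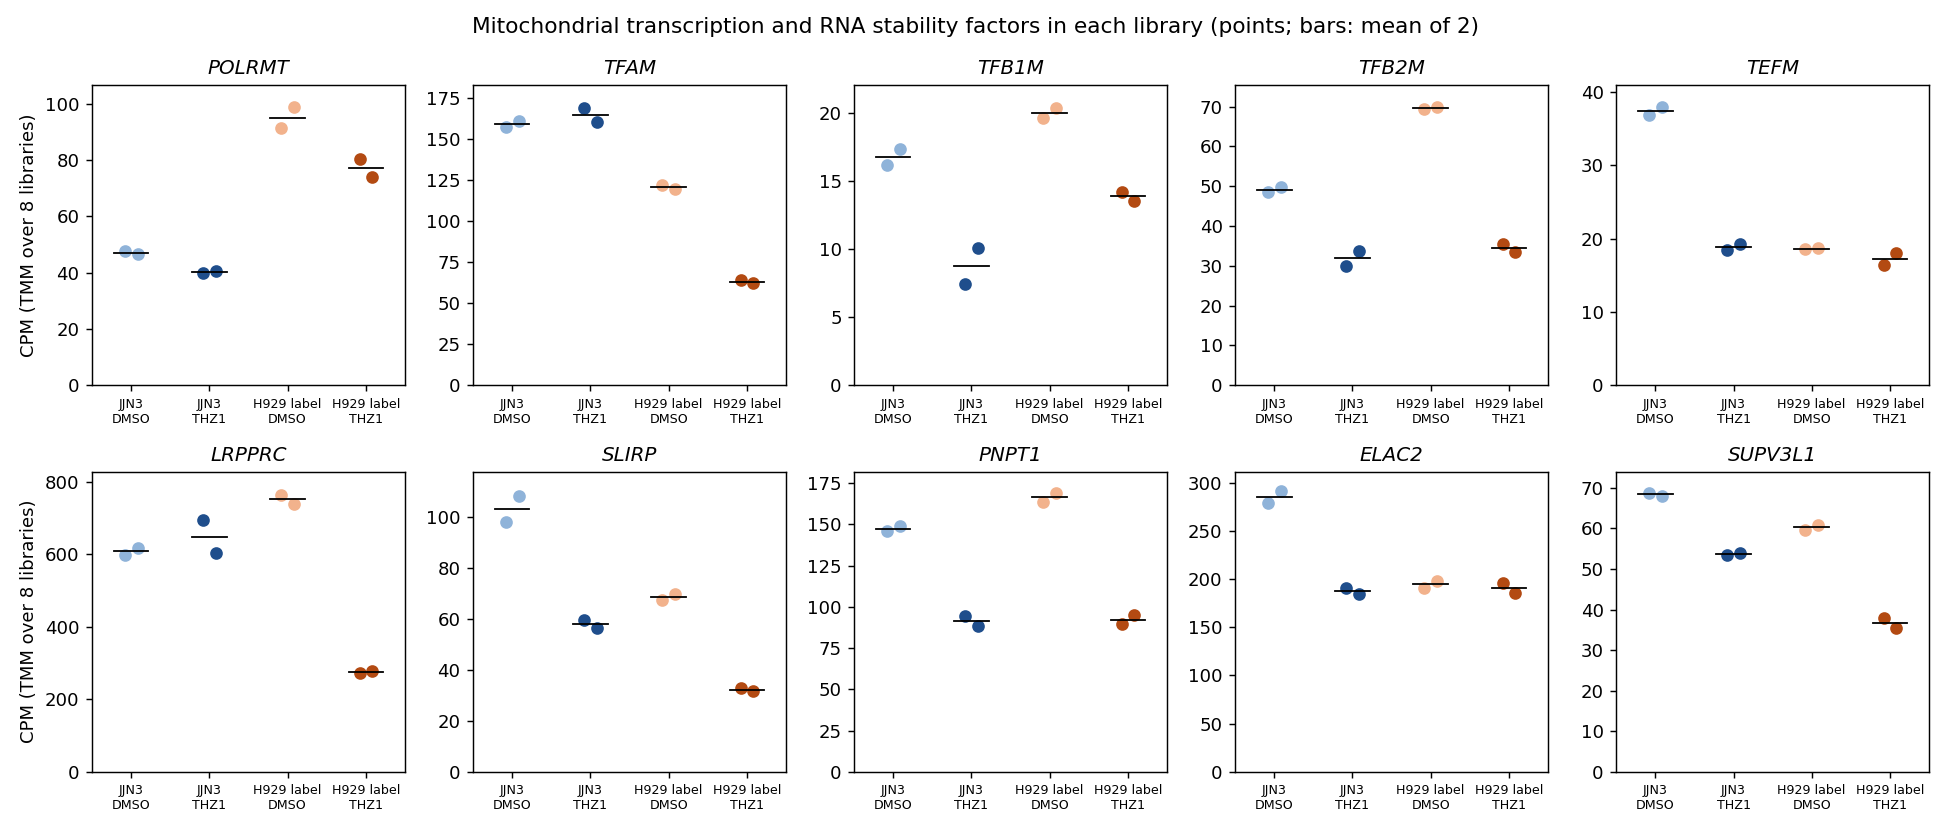
Level of each member in every library as CPM after TMM scaling over 8 libraries, with points for libraries, bars for the mean of 2 and the y axis starting at 0. TEFM fell from 36.9 and 37.97 CPM to 18.4 and 19.3 CPM in JJN3, where the treatments overlapped in LRPPRC and TFAM on this scale, and LRPPRC fell from 763 and 739 CPM to 273 and 276 CPM under the H929 labels.

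Among the transcription factors, the elongation factor TEFM (chr17:29224354-29233256, minus strand, in hg19) was at 36.9 and 37.97 CPM with DMSO and at 18.4 and 19.3 CPM with THZ1 in JJN3. The groups were far apart, and the log2 fold change was -0.97 ± 0.10 (SE, edgeR adjusted p = 1.43e-05). TFB2M (chr1:246703863-246729563, minus strand), the promoter-opening factor, went from 48.5 and 49.8 CPM to 29.8 and 33.8 CPM, a change of -0.61 ± 0.10 (edgeR adjusted p = 0.000257). POLRMT (chr19:617221-633537, minus strand), the polymerase itself, was at 47.6 and 46.6 CPM with DMSO and 39.9 and 40.5 CPM with THZ1. Both THZ1 libraries lay below both DMSO libraries, yet the change of -0.21 ± 0.09 was short of the limit (edgeR adjusted p = 0.0495). TFAM (chr10:60145105-60158980, plus strand), the DNA-packing factor, was at 157 and 161 CPM with DMSO and at 169 and 160 CPM with THZ1, and its change of 0.06 ± 0.08 was not called (edgeR adjusted p = 0.50). The groups overlapped narrowly on this scale, and with library sizes scaled over the 4 JJN3 libraries they did not, at 153.8 and 157.8 against 166.9 and 159.0 CPM. The promoter-opening and elongation factors were thus called in JJN3, while the polymerase and TFAM were not.

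TFB1M (chr6:155577268-155635627, minus strand), the rRNA methyltransferase, had the lowest counts of the set, 313 and 339 with DMSO and 122 and 182 with THZ1. These correspond to 16.2 and 17.4 CPM against 7.46 and 10.1 CPM, and TFB1M fell by 0.91 ± 0.16 on the log2 scale (edgeR adjusted p = 0.00051). In proportion to their level its THZ1 libraries differed from each other more than those of any other called member, and the log2 fold change ran from -1.15 to -0.72 when each JJN3 library was left out in turn. In the GENCODE annotation used for positions, it overlaps the opposite-strand genes TIAM2 and CLDN20. Since no source used here says whether counting used strand, reads from them cannot be told apart where counted exons coincide.

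Of the mRNA-stabilising pair, SLIRP (chr14:78174414-78227447, plus strand) was at 98.0 and 108 CPM with DMSO and at 59.7 and 56.5 CPM with THZ1 in JJN3, and it fell by 0.81 ± 0.09 (edgeR adjusted p = 1.62e-05). LRPPRC (chr2:44113363-44223365, minus strand) was at 599 and 618 CPM with DMSO and at 694 and 603 CPM with THZ1, and the groups overlapped (0.11 ± 0.10, edgeR adjusted p = 0.375). The partners therefore parted. The ratio of SLIRP to LRPPRC counts, which needs no scaling of library sizes, was 0.164 and 0.175 with DMSO and 0.0860 and 0.0937 with THZ1. In the GENCODE annotation used for positions, SLIRP overlaps the opposite-strand gene SNW1 over 43506 bases. The authors counted with an Ensembl annotation, whose gene extents may differ. Where counted exons coincide, the limit is the same as for TFB1M.

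The degradation enzymes were lower together but by unequal amounts. PNPT1 (chr2:55861196-55920998, minus strand), the nuclease, went from 146 and 149 CPM to 94.3 and 88.1 CPM in JJN3, a fall of 0.68 ± 0.08 (edgeR adjusted p = 3.12e-05). Its helicase partner SUPV3L1 (chr10:70939990-70968855, plus strand) was at 68.8 and 68.1 CPM with DMSO and at 53.5 and 53.9 CPM with THZ1, and at -0.34 ± 0.08 it passed the p threshold and not the limit on size (edgeR adjusted p = 0.00389). The ratio of PNPT1 to SUPV3L1 counts was 2.12 and 2.19 with DMSO and 1.76 and 1.64 with THZ1, without overlap. ELAC2 (chr17:12894929-12921382, minus strand), the tRNA 3′ end nuclease, which also works in the nucleus, went from 279 and 291 CPM to 190 and 184 CPM and fell by 0.59 ± 0.08 (edgeR adjusted p = 9.11e-05). POLRMT, TFAM, SLIRP and PNPT1 have processed pseudogene copies elsewhere in the genome, and reads that matched more than 1 place had been dropped by the authors.

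**Figure D3:**
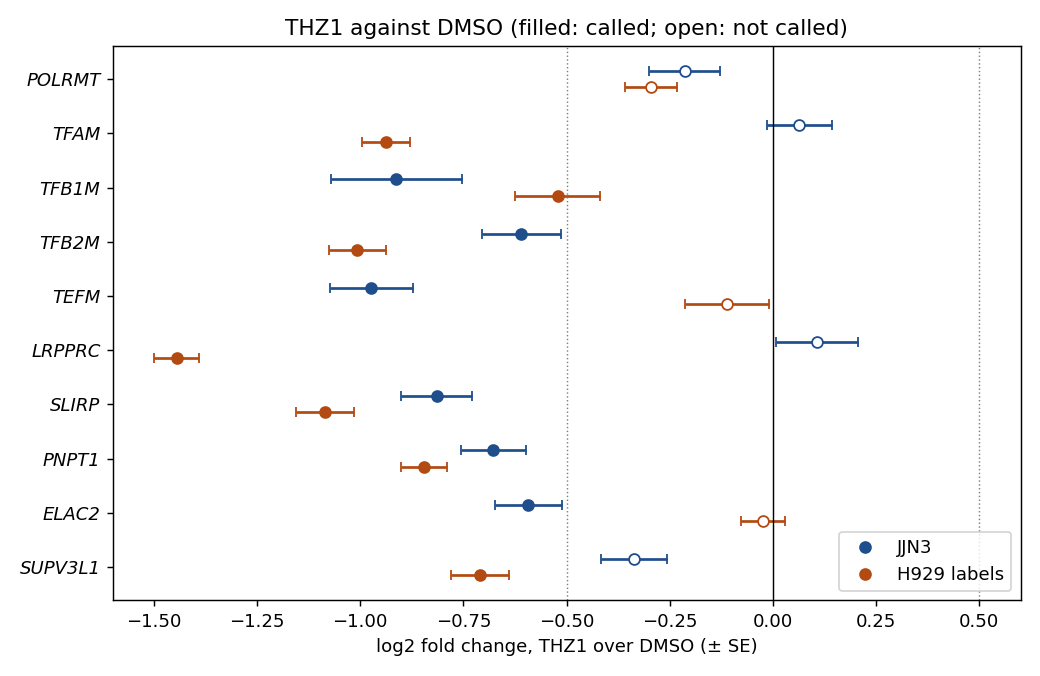
Log2 fold change of each member, THZ1 over DMSO, with its SE, in JJN3 (blue) and under the H929 labels (orange), with filled points for called members and dotted lines at the limit of 0.5. SLIRP, PNPT1, TFB1M and TFB2M are filled in both colours, whereas LRPPRC and TFAM are filled only in orange and TEFM and ELAC2 only in blue.

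The same comparison under the H929 labels covered 14863 genes. LRPPRC, SLIRP, TFB2M, TFAM, PNPT1, SUPV3L1 and TFB1M fell, 7 of 10 members, and none was called higher, in a comparison in which 32.6% of all genes were called lower and 33.1% higher. The median was -0.78 over the members and 0.01 over all genes. In 9 of 10 members both THZ1-labelled libraries lay below both DMSO-labelled libraries, against 45.4% of all genes. LRPPRC was at 763 and 739 CPM with the DMSO label and at 273 and 276 CPM with the THZ1 label, and fell by 1.44 ± 0.05 (edgeR adjusted p = 7.88e-13). Its partner SLIRP went from 67.5 and 69.9 CPM to 32.9 and 31.6 CPM, a fall of 1.09 ± 0.07 (edgeR adjusted p = 6.01e-10). Both partners were lower here, LRPPRC by more, and their count ratio was 0.0884 and 0.0946 with the DMSO label and 0.120 and 0.114 with the THZ1 label, the opposite direction to JJN3.

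TFAM was at 122 and 120 CPM with the DMSO label and at 63.8 and 61.9 CPM with the THZ1 label, and fell by 0.94 ± 0.06 (edgeR adjusted p = 3.19e-10). TFB2M went from 69.3 and 69.9 CPM to 35.5 and 33.4 CPM, a fall of 1.01 ± 0.07 (edgeR adjusted p = 1.34e-09). TEFM was at 18.6 and 18.7 CPM against 16.3 and 18.1 CPM, and its change of -0.11 ± 0.10 was not called (edgeR adjusted p = 0.325). POLRMT, at 91.5 and 98.7 CPM against 80.2 and 74.1 CPM, was lower in both THZ1-labelled libraries but short of the limit (-0.30 ± 0.06, edgeR adjusted p = 0.000467). So the initiation factors TFAM and TFB2M were called here, and neither the polymerase nor its elongation factor was.

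PNPT1 went from 164 and 169 CPM to 89.7 and 94.8 CPM under the H929 labels, a fall of 0.85 ± 0.06 (edgeR adjusted p = 8.27e-10). SUPV3L1 went from 59.6 and 60.9 CPM to 37.9 and 35.5 CPM, a fall of 0.71 ± 0.07 (edgeR adjusted p = 1.33e-07). Both degradation enzymes were thus called in these libraries. ELAC2 was at 191 and 198 CPM against 196 and 185 CPM, and the groups overlapped (-0.02 ± 0.05, edgeR adjusted p = 0.693). TFB1M was at 19.6 and 20.4 CPM against 14.2 and 13.5 CPM, and its change of -0.52 ± 0.10 passed the limit only just (edgeR adjusted p = 0.000219). Without the library labelled H929 DMSO 2 or H929 THZ1 2 the TFB1M change was -0.48, and it was -0.50 with DESeq2 and -0.47 with total counts, so its call was lost in each case.

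Whether a member responded differently between JJN3 and the H929 labels was tested with an interaction term in a fit to 8 libraries and 16122 genes. These contrasts reuse the libraries of both comparisons above. The difference was called for 4 of 10 members, where 53.7% of all genes were called in either direction. For LRPPRC and TFAM the THZ1 difference, not the level, was lower under the H929 labels than in JJN3 (log2 differences of -1.54 ± 0.11 and -0.99 ± 0.09, edgeR adjusted p = 4.99e-09 and 1.49e-07). TEFM and ELAC2 went the other way, with differences of 0.87 ± 0.14 and 0.58 ± 0.09 (edgeR adjusted p = 4.06e-05 and 6.01e-05). PNPT1, called lower in both comparisons, gave a difference of -0.16 ± 0.10 (edgeR adjusted p = 0.171), and SLIRP gave -0.26 ± 0.11 (edgeR adjusted p = 0.0501). TFB1M gave 0.40 ± 0.19 (edgeR adjusted p = 0.0747), and it was called at 0.66 without JJN3 THZ1 library 2 and at 0.54 with total counts, a scaling that moved the median of all genes by 0.14 in this contrast.

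The members were also compared between the labelled lines with DMSO alone. Of 10 members, 5 were called between H929-labelled and JJN3 libraries with DMSO, against 61.5% of all genes. POLRMT was higher by 1.01 ± 0.08 (edgeR adjusted p = 3.78e-09) and TEFM, its elongation factor, was lower (-1.004 ± 0.09, edgeR adjusted p = 6.02e-08). The ratio of TEFM to POLRMT counts was thus 0.775 and 0.814 in JJN3 DMSO and 0.203 and 0.190 under the H929 DMSO label. SLIRP (-0.59 ± 0.07) and ELAC2 (-0.55 ± 0.07) were lower, and TFB2M at 0.50 ± 0.08 was at the limit. Without H929 DMSO library 2 or JJN3 DMSO library 1 the TFB2M difference was 0.49 and 0.47 and the call was lost. Over 13 alternative settings, a limit of 1 included, the TFB2M difference ran from 0.47 to 0.51 and its call was lost in 7. The line and the table in which its counts were deposited cannot be told apart.

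With THZ1, 6 of 10 members were called between the H929-labelled and JJN3 libraries, against 63.9% of all genes. TFAM (-1.39 ± 0.07), LRPPRC (-1.24 ± 0.08), SLIRP (-0.85 ± 0.08) and SUPV3L1 (-0.55 ± 0.08) were lower under the H929 label, and POLRMT (0.94 ± 0.08) and TFB1M (0.65 ± 0.14) were higher. The SUPV3L1 call was lost without H929 THZ1 library 2, at -0.48, and the TFB1M call without JJN3 THZ1 library 1, at 0.49. Over 13 alternative settings, a limit of 1 included, SUPV3L1 ran from -0.58 to -0.43 and its call was lost in 4. The TFB1M call was lost in 2 of the 13. In the order of the groups, ELAC2 was highest in JJN3 DMSO, and its other groups overlapped with their neighbours. TEFM was likewise highest in JJN3 DMSO, and JJN3 THZ1 overlapped with the H929 DMSO label. POLRMT fell into an order with no overlap between neighbours, from the H929 DMSO label through the H929 THZ1 label and JJN3 DMSO to JJN3 THZ1. TFB1M, SLIRP and SUPV3L1 also had no overlap between neighbours, in other orders, with SLIRP and SUPV3L1 highest in JJN3 DMSO. The share of all genes with such an order was not computed.

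Counts were divided by the length of the canonical transcript to set the members beside each other. In JJN3 DMSO, SLIRP stood at 274 ± 19.4 CPM per kilobase (SD, n = 2), LRPPRC at 92.1 ± 2.08, ELAC2 at 75.7 ± 2.22, PNPT1 at 32.4 ± 0.43 and TFAM at 31.6 ± 0.46 CPM per kilobase. POLRMT was at 12.5 ± 0.18 and TFB1M at 5.997 ± 0.30 CPM per kilobase, the lowest level of the set. The stabilising pair thus exceeded the polymerase in level per length, and SLIRP, whose canonical transcript of 376 bases is the shortest, depends most on the length chosen. After THZ1 in JJN3 the same quantity was 155 ± 6.001 for SLIRP and 98.2 ± 9.78 for LRPPRC, and under the H929 THZ1 label 85.8 ± 2.48 and 41.6 ± 0.32 CPM per kilobase.

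The initiation factors and the relatives TFB2M and TFB1M can be compared within a library without scaling. The ratio of TFB2M to TFB1M counts was 2.99 and 2.86 in JJN3 DMSO and 4 and 3.34 in JJN3 THZ1, and 3.53 and 3.43 against 2.49 and 2.47 under the H929 labels. The ratio of TFAM to POLRMT counts was 3.31 and 3.45 in JJN3 DMSO and 4.23 and 3.96 in JJN3 THZ1, and 1.33 and 1.21 against 0.795 and 0.835 under the H929 labels. In each of these ratios the THZ1 libraries lay above the DMSO libraries in JJN3 and below them under the H929 labels, without overlap. No test was run on the ratios.

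The transcripts these proteins make and keep were measured in the same libraries. The 13 mRNAs encoded by mtDNA took 2.96% and 1.40% of all counts in JJN3 DMSO and 3.97% and 5.08% in JJN3 THZ1. All 13 were called higher in JJN3 (median log2 fold change 1.19), led by MT-ND5, a subunit of respiratory complex I, at 2451 and 1069 CPM with DMSO and 4862 and 5654 CPM with THZ1 (1.596 ± 0.29, edgeR adjusted p = 0.000641). MT-ND6, the mRNA read from the other strand of mtDNA, changed by 1.496 ± 0.25 (edgeR adjusted p = 0.000345), but since no source says whether counting used strand, its counts may hold reads from the abundant transcript of the opposite strand. The JJN3 DMSO libraries differed from each other for these transcripts more than for the members. The median was 0.68 and 9 of 13 were called without JJN3 DMSO library 2, the median was 1.80 without JJN3 DMSO library 1, and DESeq2 called 3 of 13. Both mitochondrial rRNAs rose in JJN3, MT-RNR2 by 2.31 ± 0.21 and MT-RNR1 by 1.71 ± 0.14 (edgeR adjusted p = 6.50e-06 and 2.85e-06). Together they took 0.392% and 0.246% of counts with DMSO and 1.35% and 1.53% with THZ1. These shares depend on how rRNA was removed or mRNA selected, which is not given in the sources used here. Levels of the mtDNA-encoded transcripts, here and under the H929 labels, are relative to the rest of the library. More mitochondrial RNA cannot be told apart in them from less of other RNA.

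**Figure D4:**
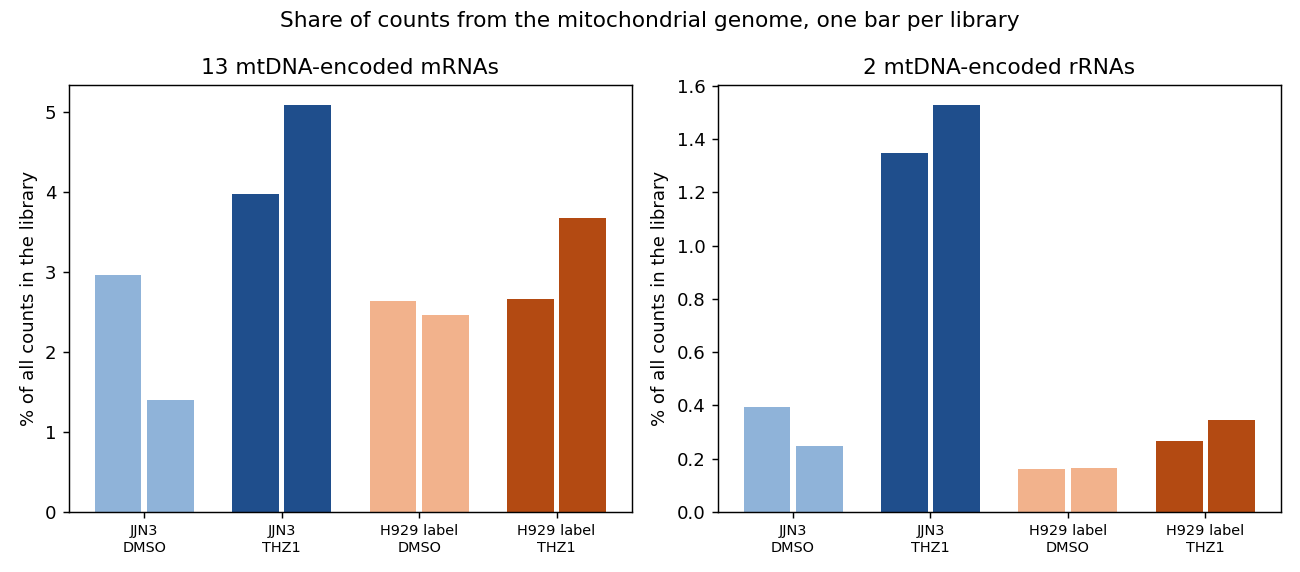
Share of all counts in a library that came from the 13 mtDNA-encoded mRNAs (left) and the 2 mtDNA-encoded rRNAs (right), in percent, with 1 bar per library and axes from 0. Both JJN3 THZ1 libraries exceed both JJN3 DMSO libraries, and the shares of mRNA under the H929 labels lie between 2.46% and 3.67%.

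Under the H929 labels the 13 mRNAs took 2.64% and 2.46% of counts with DMSO and 2.67% and 3.67% with THZ1. MT-ND4L (0.65 ± 0.10, edgeR adjusted p = 2.70e-05) and MT-ND6 (0.51 ± 0.14, edgeR adjusted p = 0.00264) were called higher, 2 of 13, a smaller share than the 33.1% of all genes called higher in this comparison, and the median was 0.32. That count was 0 without H929 THZ1 library 2, 8 without H929 THZ1 library 1, 1 without H929 DMSO library 2 and 3 without H929 DMSO library 1. MT-RNR1 and MT-RNR2 rose by 1.19 ± 0.07 and 0.82 ± 0.09 (edgeR adjusted p = 3.68e-10 and 7.78e-07). Leaving the mtDNA-encoded genes out of the library sizes left 6 and 7 members called in JJN3 and under the H929 labels.

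Other nuclear genes of mitochondrial gene expression were grouped by function. In JJN3, 18 of 24 genes for processing and modification of mitochondrial RNA were called lower and 0 higher, with a median of -0.74. MRPL12, a protein of the mitochondrial ribosome, was at 16.6 and 15.01 CPM with DMSO and 4.89 and 6.34 CPM with THZ1 (-1.47 ± 0.16, edgeR adjusted p = 2.26e-05). Of 17 genes of the FASTK family and other stability factors, 8 were called lower and 0 higher (median -0.50), led by the helicase DDX28 (-1.05 ± 0.13). The MTERF family holds the mitochondrial termination factor MTERF1 and its relatives. Of its 4 genes, MTERF2 (-1.08 ± 0.17), MTERF1 (-0.77 ± 0.10) and MTERF3 (-0.75 ± 0.09) fell and none was called higher. For mtDNA replication and the nucleoid 7 of 19 were called lower and 0 higher (median -0.45), led by the DNA ligase LIG3 (-1.08 ± 0.08). Of 13 translation factors, 6 were called lower, led by MTRFR (-0.97 ± 0.15), and MTRF1L, a peptide release factor, rose by 0.85 ± 0.17 (median -0.37). The medians of these lists were below that of all genes, and those of the mtDNA-encoded transcripts were above it.

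**Figure D5:**
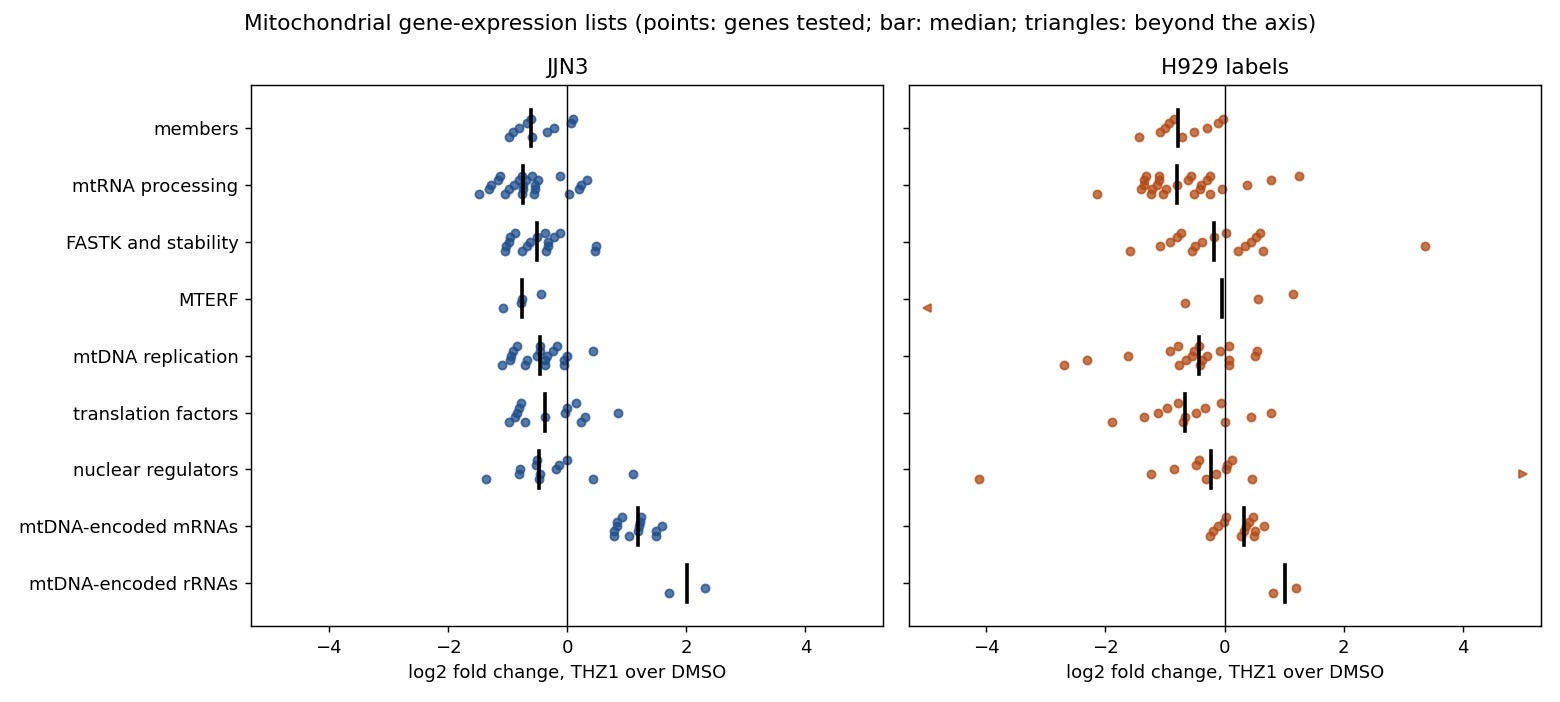
Log2 fold change, THZ1 over DMSO, of each gene tested in the members and the other mitochondrial gene-expression lists, in JJN3 (left) and under the H929 labels (right), with bars at the list medians and triangles for genes beyond the axis. In JJN3 the medians of the nuclear lists lie between -0.74 and -0.37 and in the MTERF list at -0.76, while the mtDNA-encoded mRNAs have a median of 1.19.

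List counts under the H929 labels are to be read against the 32.6% of all genes called lower and 33.1% called higher there, and those in JJN3 against 21.3% and 20.6%. Under the H929 labels, 16 of 25 RNA processing genes were called lower and 2 higher (median -0.79). PRORP, the nuclease for tRNA 5′ ends, had 2 gene IDs, and only the ID with the highest summed count was used. It had the largest fall at -2.15 ± 0.46, on 26 and 22 counts against 8 and 3. In JJN3 this ID was too low to be tested. NSUN3 (1.24 ± 0.12) and CDK5RAP1 (0.77 ± 0.08), which modify mitochondrial tRNAs, rose. In the FASTK and stability list 6 of 17 were called lower and 4 higher, shares near those of all genes, with the largest fall in FASTKD5 (-1.59 ± 0.07), and LACTB2 (3.36 ± 0.09), GRSF1 (0.64 ± 0.05), FASTKD3 (0.59 ± 0.11) and MTRES1 (0.53 ± 0.10) rose (median -0.17). LACTB2, an RNA endonuclease, was at 6.78 and 7.76 CPM against 74.9 and 73.7 CPM, whereas in JJN3 it fell by 0.87 ± 0.09.

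MTERF1 was at 460 and 414 counts under the H929 DMSO label and at 0 in both H929 THZ1 libraries, at least 145-fold lower with a floor of 3 counts per library. MTERF2 fell by 0.66 ± 0.16, and MTERF4 (1.15 ± 0.10) and MTERF3 (0.57 ± 0.08) rose, which made 2 lower and 2 higher of 4 (median -0.05). For replication and the nucleoid 9 of 19 were called lower and 2 higher (median -0.43), with the largest fall in ATAD3B (-2.69 ± 0.08), whose reads may be split with its near-identical relative ATAD3A, and rises in PRIMPOL (0.54 ± 0.13) and TK2 (0.51 ± 0.09). Of the translation factors 7 of 13 were called lower, led by the ribosome recycling factor MRRF (-1.89 ± 0.08), and MTRF1L rose by 0.78 ± 0.13 (median -0.66). In each of these lists under the H929 labels some genes were called lower and some higher.

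Of 12 nuclear regulators of mitochondrial genes, 5 fell and 1 rose in JJN3 (median -0.47). The falls were in GABPB2 (-1.36 ± 0.17) and GABPB1 (-0.52 ± 0.10), which pair with GABPA, and in MYC (-0.80 ± 0.10), the receptor ESRRA (-0.79 ± 0.16) and the coactivator PPRC1 (-0.50 ± 0.08). PPARGC1A, a coactivator of mitochondrial genes, rose by 1.11 ± 0.17 from 151 and 108 counts to 241 and 248. NRF1, whose letters stand in the promoters of POLRMT, TFB1M and TFB2M, was at 24.9 and 27.9 CPM with DMSO and 19.0 and 19.1 CPM with THZ1 (-0.46 ± 0.11, short of the limit), and GABPA gave -0.01 ± 0.09. Under the H929 labels 3 of 12 fell and 1 rose (median -0.23), no more than the share of all genes in either direction, and the falls were in MYC (-4.12 ± 0.07, from 2364 and 2312 CPM to 135 and 133 CPM), PPARGC1B (-1.24 ± 0.09) and ESRRA (-0.86 ± 0.08). PPARGC1A was counted 1 and 8 times with the DMSO label and 680 and 734 times with the THZ1 label.

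Across the 8 libraries, genes whose log2 CPM followed a member most closely were listed as a description, with Pearson's r over 8 libraries that fall into 4 groups of 2. TFB1M was followed by FLAD1 (0.996) and TACO1 (0.995), the latter an activator of mitochondrial translation. SUPV3L1 was followed by MRPL18 (0.996), a mitochondrial ribosomal protein, and by SLC25A13 (0.995), a mitochondrial carrier. SLIRP was followed by PPP5C (0.998) and HSPE1 (0.997), the mitochondrial co-chaperonin. The nearest genes of POLRMT were TACC3 and ASB6 (both 0.998), those of TFAM were ADAM23 and NFE2L3 (both 0.999), and those of TFB2M were TANGO6 and ABCC4 (both 0.998). LRPPRC was followed by ZNF551 (0.998) and KCNQ1 (0.996), PNPT1 by COPS7A and FAM136A (both 0.996), TEFM by STYXL1 (0.992) and C18orf21 (0.989), and ELAC2 by CLTA (0.990) and PAFAH1B3 (0.987). With 4 groups many genes reach such values, and the list says only which profiles were alike.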

How the data were processed

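RNA-seq had been performed on 8 libraries, 2 each of JJN3 and H929-labelled cells with DMSO or THZ1, as single-end reads from total RNA. The authors aligned reads to hg19 with STAR 2.5.2a, kept uniquely mapping reads and deposited raw counts per Ensembl gene from featureCounts, with no normalization. The strand setting of the counting and the rRNA or mRNA selection are not given in the sources used here. The authors' DESeq2 1.12.4 comparisons (fold changes and p-values) were not used, except that the JJN3 table pairs gene IDs with symbols. A member or listed gene with several IDs was given the ID with the highest summed count.

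Genes were tested in R 4.3.3 with edgeR 4.0.16 (TMM, filterByExpr, quasi-likelihood test, Benjamini-Hochberg adjustment over all genes tested), each THZ1 comparison on its 4 libraries and the other contrasts on 8. CPM values were scaled over 8 libraries, fold changes within their own fit. Scripts were tested on simulated data in which 200 genes were changed by a log2 fold of 1. Over the contrasts edgeR recovered 74.5% to 87.5% of them and DESeq2 65% to 74%, so a changed gene can be missed. Alternatives were DESeq2 1.42.0, other scalings, filters and limits, a replicate block and leaving out each library. The alternatives for the mtDNA-encoded transcripts were added after seeing the data. The members and lists were chosen with earlier results of these data known. Named genes beyond the members were, per list and THZ1 comparison, the largest called fall and rise, and all called genes of a direction with at most 5, and for each member the 2 genes of at least log2 CPM 3 with the nearest profile; MT-ND6 in JJN3, MT-ND1, NRF1, GABPA and the genes named among the marker lists were chosen after their values were seen. Gene positions are from the GENCODE annotation of GRCh37, and promoters from RefSeq. The depth was 17476443 to 19194371 counts per library, at which 3 counts are about 0.16 to 0.17 CPM.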

Additional observations from a re-analysis of the deposited data

Results flagged for a closer look

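The THZ1 difference itself differed between JJN3 and the H929 labels, by the interaction term of the edgeR fit over 8 libraries, for the members LRPPRC (-1.54), TFAM (-0.99), TEFM (0.87) and ELAC2 (0.58), each value being the log2 difference under the H929 labels minus that in JJN3. Whether THZ1 or another difference between the H929-labelled groups gave these values cannot be told apart.

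Among the mtDNA-encoded transcripts the difference was -1.49 for MT-RNR2, -1.17 for MT-ND5, -0.97 for MT-ND6 and -0.50 for MT-RNR1. The interaction was called for 8 of the 13 mRNAs, all lower, with MT-ND1 at -1.49, and 5 were not called, in a test where 53.7% of all genes were called in either direction. The nuclear genes below were named from THZ1 differences called in these same libraries and are listed only where the interaction was called. Their calls are therefore not independent support. The interaction was not called for 12 of 25 processing, 8 of 17 stability and 11 of 19 replication genes. Nor was it for 10 of 13 translation factors, 6 of 12 regulators and 1 of 4 MTERF genes. Among genes for RNA processing and stability the difference was 4.24 for LACTB2, 1.57 for MTRES1, 1.32 for CDK5RAP1, 1.048 for NSUN3, 0.86 for GRSF1, 0.72 for FASTKD3 and -2.06 for FASTKD5. In the MTERF family it was 1.602 for MTERF4 and 1.33 for MTERF3, and MTERF1, at 0 counts in both libraries labelled H929 THZ1, was at least 145-fold lower there than with the DMSO label. For replication and translation it was 1.17 for LIG3, 0.89 for PRIMPOL, -1.75 for ATAD3B and -1.049 for MRRF. Among the regulators it was 6.11 for PPARGC1A, on 1 and 8 counts in the DMSO-labelled libraries, 1.83 for GABPB2, 0.55 for GABPB1, -0.76 for PPARGC1B and -3.31 for MYC.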

How the results depend on the processing

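With 2 libraries per group, the number of members called ran from 6 to 6 in JJN3, 6 to 7 under the H929 labels, 4 to 5 for the interaction, 4 to 5 between DMSO libraries and 5 to 6 between THZ1 libraries when each library was left out. A limit of 1 on the log2 fold change left 0, 3, 1, 2 and 2 members in that order, and no limit gave 9 between DMSO libraries. Replicate numbers did not pair the libraries (correlations of deviations 0.0096 in JJN3 and -0.011 under the H929 labels), and a replicate block gave 6, 7, 4, 5 and 6 members. Changes near 0 turned sign: TFAM in JJN3 was -0.039 with total counts. ELAC2 under the H929 labels was 0.00013 with DESeq2, 0.0023 with DESeq2's size factors, 0.026 with total counts and -0.061 to 0.027 with a library left out. The POLRMT interaction was 0.069 with total counts, 0.010 without a filter and -0.11 to 0.016 with a library left out. Between THZ1 libraries, PNPT1 ran from -0.024 to 0.10 and ELAC2 from -0.0018 to 0.086 with a library left out. The cause was not tested. TFB1M rested on 122 to 368 counts per library, which limits its precision.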
